A study of Mus musculus with 26 samples.

Results

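Striatal-like ventral neurons made up 404 of the 43456 nuclei recovered from embryonic mouse cortex in 8 single-nucleus libraries, and 394 of the 404 came from 1 library, wild-type saline replicate 1. They were picked from barcodes with at least 500 UMIs and 200 genes, where a UMI (unique molecular identifier) stands for 1 captured RNA molecule. A member had at least 1 UMI summed over Gad1, Gad2, Dlx1, Dlx2 and Dlx5, which mark GABAergic neurons of ventral origin. It also had at least 2 UMIs summed over Ebf1, Isl1 and Six3, transcription factors of the developing striatum, and 0 of Lhx6 and Nxph1, which mark interneurons of the medial ganglionic eminence. Levels of these 10 genes in the members follow from the choice and are given as description only.

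The nuclei came from prospective somatosensory (S1) cortex of male C57Bl/6N embryos at E15.5. Their dams had received an intraperitoneal injection at E12.5 of saline or of poly(I:C). Poly(I:C) is an RNA mimic of viral infection that causes maternal immune activation (MIA). Embryos were wild type or Csf1r-null (Csf1r-/-). Csf1r encodes a receptor that microglia need to develop, and the null allele is present in every cell of the embryo. The 4 groups, wild-type saline, wild-type MIA, Csf1r-null saline and Csf1r-null MIA, had 2 libraries each. The labels name no dam or embryo for a library.

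Neurons that make GABA are born in the ventral forebrain, in 3 swellings called ganglionic eminences. The lateral one gives rise to the projection neurons of the striatum, which lies beneath the cortex, whereas the medial (MGE) and caudal (CGE) ones send interneurons into the cortex. Striatal projection neurons mature along 2 routes: direct-pathway neurons, which depend on Isl1 and Ebf1 and come to express the dopamine receptor Drd1 and the peptide gene Tac1, and indirect-pathway neurons, which depend on Six3 and Sp9 and come to express Drd2, Adora2a and Penk. Cortical projection neurons, which use glutamate, are instead marked by Neurod2 and Neurod6.

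Nuclei per library numbered 4552 to 6198, and their UMIs summed to between 9897721 and 17605575, with medians of 1469 to 2953.5 UMIs per nucleus. Replicate number also stood for the software version and the gene list of the deposited files. Between 0 and 14 barcodes were shared by any pair of libraries, and 6 of the 394 members carried a barcode also seen in another library, none of them as a member there. Csf1r UMIs went against 2 labels. A single one was found under the label wild-type MIA replicate 2, with the other microglial genes at 4.29 CPM (counts per gene scaled to a library or class total of 1000000 UMIs). Under the label Csf1r-null saline replicate 2 there were 10, with the other microglial genes at 17.8 CPM. The other 3 wild-type libraries had 11 to 23 Csf1r UMIs and the other 3 Csf1r-null libraries 1 to 4. Whether these 3′ reads lie in the deleted stretch is not given in the sources used here.

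In wild-type saline replicate 1 the members were 8.40% of 4691 nuclei (95% exact Clopper-Pearson interval 7.62 to 9.23, which like all intervals here covers counting error only). The second wild-type saline library held 1 among 4652 nuclei. Wild-type MIA replicate 1 held 1 among 6083, and the one labelled wild-type MIA replicate 2 held 0 of 5311, which allows a share of up to 0.0565%. Csf1r-null saline replicate 1 held 0 of 6008 (up to 0.0499%), whereas the one labelled Csf1r-null saline replicate 2 held 7 of 5961 (0.117%, interval 0.0472 to 0.242). Csf1r-null MIA replicate 1 held 0 of 4552 (up to 0.0659%) and replicate 2 held 1 of 6198. Thus 1 of 8 libraries stood far above the others, including its own replicate, and no comparison between treatments or genotypes was made with these nuclei. When every nucleus was thinned to 1000 UMIs, 199 of 4466 nuclei (4.46%) were members in wild-type saline replicate 1, and between 0 and 4 were in each other library.

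**Figure D1:**
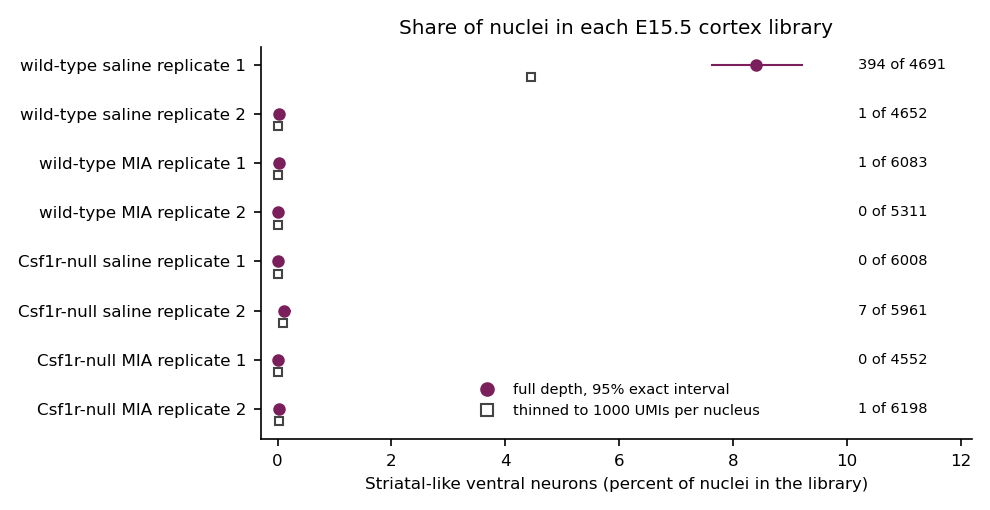
Share of nuclei (percent, linear axis) that met the rule in each of the 8 libraries, with 95% exact binomial intervals. Wild-type saline replicate 1 sits at 8.40%, and the next highest, labelled Csf1r-null saline replicate 2, at 0.117%. Open squares give the share after thinning to 1000 UMIs per nucleus.

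Nuclei with at least 2 UMIs of the 5 GABAergic genes, which are part of the rule and take in members, were 24.9% in wild-type saline replicate 1 against 3.15 to 5.44% in the other 7 libraries. CGE-type nuclei, defined like the members but by at least 2 UMIs of Adarb2 and Prox1 and none of the other marker genes, were 2.05% against 0.161 to 0.417%. MGE-type nuclei, defined by at least 2 UMIs of Lhx6 and Nxph1 and none of Ebf1, Isl1 and Six3, were 4.11%, close to the next library at 4.09%, in a range that began at 1.80%. Over all nuclei, Zfp503, a striatal factor that took no part in the rule, was at 26.4 CPM against 0 to 0.616 elsewhere. The makeup of the sampled cells and the library cannot be told apart, since the members are essentially in 1 library.

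RNA of the rule genes was also found outside the members. In the near-empty droplets of wild-type saline replicate 1 (at most 100 UMIs), Ebf1 was at 98.1 CPM, against 30.1 to 39.2 in the other 3 libraries whose files list such droplets, Isl1 at 24.4 against 2.41 to 3.77, and Zfp503 at 12.7 against 1.61 to 3.92. In those 3 libraries, with 0 or 1 member each, the droplets had more Ebf1 than the nuclei (5.54 to 7.71), and where this RNA came from was not tested. Neurod2 or Neurod6 nuclei without any GABAergic UMI, which should lack Ebf1, Isl1 and Six3, had at least 1 UMI of these in 101 of 2185 cases (4.62%, interval 3.78 to 5.59, median depth 2862 UMIs), against 0.477 to 0.831% in the other libraries. Members, at a median depth of 2346.5 UMIs, all had at least 2 by the rule, and levels in them are set below beside those in projection neuron nuclei of the same library. Those were picked to have none of the rule genes, which also leaves out nuclei that caught such RNA. Scrublet, a doublet caller, marked between 0 and 3.05% of a library by its own threshold and none in wild-type saline replicate 1. With the highest scores removed at an expected rate of 0.8% per 1000 nuclei, 363 members of 4515 nuclei were left (8.04%).

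Around the threshold, 138 further nuclei of the library with GABAergic UMIs had exactly 1 UMI of Ebf1, Isl1 and Six3, and 108 had at least 2 but no GABAergic UMI. Another 8 were left out for Lhx6 or Nxph1. Zfp503 was at 21.8 CPM in the 687 GABAergic nuclei with none of the 3 genes, 95.7 in those with 1 UMI, 215 in the 76 with 2, 194 in the 131 with 3 to 5 and 232 in the 187 with 6 or more. Maf, an MGE interneuron gene, went the other way, from 192 at none to 34.0, 17.4, 22.2 and 10.5. Nuclei just inside the threshold were thus near those well inside for Zfp503, and those just outside lay between. Foxp1 was different: it was at 257 in nuclei with none, 448 in those with 1, 256 in members with 2, 422 in those with 3 to 5 and 1090 in those with 6 or more, so that members just inside the threshold were no higher than nuclei outside it.

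The members differed in which of the 3 factors had a UMI. Six3 alone was found in 138 of 394 (35.0%, interval 30.3 to 40.0), Ebf1 with Isl1 in 119 (30.2%), Isl1 alone in 54 (13.7%), Ebf1 alone in 37 (9.39%) and Isl1 with Six3 in 31 (7.87%). Ebf1 with Six3 was found in 10 and all 3 in 5. Ebf1 reached 127 UMIs in 1 nucleus, Six3 22 and Isl1 19. Gad2, which encodes a GABA-synthesizing enzyme, had a UMI in 308 members (78.2%), Dlx5 in 147, Dlx1 in 136, Gad1 in 119 and Dlx2 in 91.

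To describe what the members were beyond the rule, their summed UMIs (1059742) were set against those of 193 MGE-type nuclei (593427 UMIs), 96 CGE-type nuclei (264110) and 2065 projection neuron nuclei (6496333; at least 2 UMIs of Neurod2 and Neurod6 and none of the rule genes), all from wild-type saline replicate 1. With members in essentially 1 library there is no replicate check, so no p-value is given, and a gene is called apart when the TMM-scaled levels differed at least 4-fold and the classes together had at least 20 UMIs. A class at 0 was set to 3 UMIs, which makes its fold a lower bound. The reference classes occurred in all 8 libraries, and their range over the 8 is given as a measure of spread.

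Against MGE-type nuclei, 200 of 8933 genes compared (2.24%) were at least 4-fold higher in the members and 121 (1.35%) at least 4-fold lower. Of the 200, 183 lay above the MGE-type nuclei of all 8 libraries, and of the 121, 115 lay below all of them. Against CGE-type nuclei 161 of 8317 (1.94%) were higher and 41 (0.493%) lower. There only 58 of the 161 lay above the 8 libraries, in which CGE-type nuclei numbered 10 to 96, and for 101 of the 161 the 95% counting interval of the log2 difference did not include 0. Against projection neuron nuclei 195 of 11754 (1.66%) were higher, all 195 above the 8 libraries, and 349 (2.97%) lower. Of the 349, 345 lay below all 8 libraries, and for 273 the counting interval did not include 0. These calls rest on the fold itself. The whole counting interval lay past 4-fold for 37 of the 200 and 52 of the 121 genes against MGE-type nuclei, 7 of the 161 and 19 of the 41 against CGE-type nuclei, and 111 of the 195 and 59 of the 349 against projection neurons. The median log2 difference of all genes compared was 0.04, 0.08 and -0.06 in the 3 comparisons.

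A list of 14 striatal transcription factors that the rule did not use came first. Of 13 with enough UMIs, 8 were at least 4-fold higher than in MGE-type nuclei and none lower, with a median log2 difference of 3.12. Rxrg, one of the 8, was seen only in the members of these 2 classes and so entered the comparison through them alone. Zfp503, which promotes striatal projection neuron fate, was at 218 CPM (interval 191 to 248), with a UMI in 128 members. It was at 1.69 in MGE-type nuclei, and at 0 to 1.69 in those of the 8 libraries (log2 difference 7.03, counting interval 4.19 to 9.86). CGE-type nuclei had no Zfp503 UMI in any library (the members of wild-type saline replicate 1 were higher by at least 4.32 on the log2 scale), and projection neurons were at 1.23. The summed Zfp503 level of the members, which is that of 1 library, was thus above the summed level of each reference class in every library. Single nuclei overlapped, since the members other than these 128 had no Zfp503 UMI.

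Foxp1, a forkhead factor of striatal and deep cortical neurons, was at 756 CPM in the members, 74.1 in MGE-type, 79.5 in CGE-type and 229 in projection neuron nuclei. Its excess was at least 4-fold over both interneuron classes (log2 3.36 and 3.31) but not over projection neurons (1.63, interval 1.51 to 1.76). Foxp2, its relative, was at 653, 75.8, 466 and 174. The CGE-type value of this library was the highest of the 8, from a lowest of 0. Meis2, a homeobox factor of lateral and caudal ganglionic eminence lineages, was at 5578, 265, 2037 and 1617 (log2 4.41, 1.51 and 1.70). Pbx3, a partner of Meis proteins, was at 511, 15.2, 852 and 36.2, higher in CGE-type nuclei than in the members. Of these 4 genes, all were called apart from MGE-type nuclei, Foxp1 also from CGE-type nuclei and Pbx3 also from projection neurons. Over the 8 libraries, MGE-type nuclei had their highest Meis2, Foxp2 and Zfp503 in wild-type saline replicate 1 (265, 75.8 and 1.69), from lowest values of 126, 3.4 and 0, and the part of free RNA in this was not tested.

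Bcl11b (Ctip2), which striatal neurons need to differentiate, was at 1491 CPM against 580, 481 and 422. Its log2 differences of 1.37, 1.69 and 1.73 stayed under 4-fold. Meis1 was at 194 CPM against 20.2, 159 and 7.08. The retinoid receptor genes Rarb and Rxrg were at 31.1 and 29.3 CPM, with at most 7.57 in any reference class. Ikzf1, a factor of embryonic striatal neurons, had 21 UMIs in the members and none in the 3 reference classes. Some listed factors were not higher in the members. Sp9 was at 287 CPM, below MGE-type (465) and CGE-type (401) nuclei by less than 4-fold and far above projection neurons (4.93). Tshz1 was at 54.7 against 50.6 in MGE-type and 170 in CGE-type nuclei, and Pbx3, though higher than in MGE-type nuclei, was at 511 against 852 in CGE-type nuclei. Ikzf2 was at 70.8 against 72.5 and 60.6. Against CGE-type nuclei 3 of 13 (Foxp1, Zfp503 and Rarb) and against projection neurons 8 of 13 were at least 4-fold higher, with none lower in either.

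**Figure D2:**
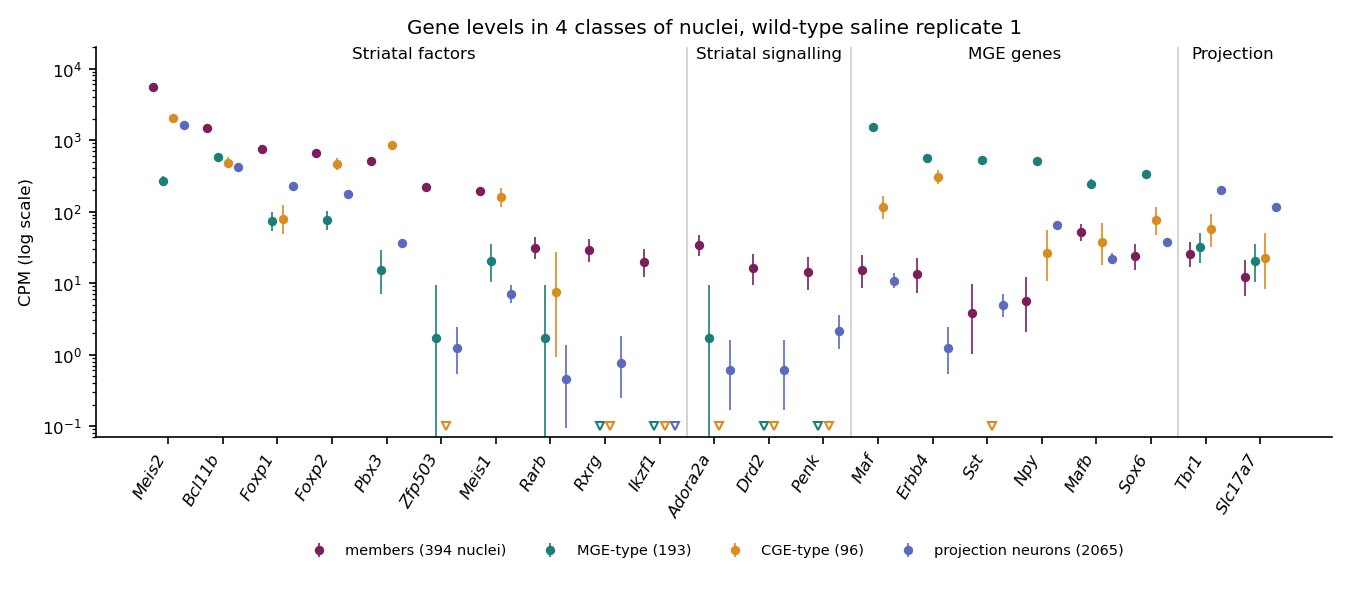
Level of genes that the rule did not use (log axis, CPM) in the 4 classes of wild-type saline replicate 1, with 95% Poisson intervals for counting error; open triangles at the bottom mark 0 UMIs. Zfp503 stands at 218 in the members and at 1.69 or less in each other class, and Maf at 15.1 against 1512 in MGE-type nuclei.

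After thinning to 1000 UMIs, which left out 13 members, 3 MGE-type, 2 CGE-type and 34 projection neuron nuclei, Zfp503 was seen in 18.6% of members (interval 14.9 to 22.9), 1 of 190 MGE-type nuclei, 0 of 94 CGE-type nuclei and 0.148% of projection neuron nuclei. At full depth the shares were 32.5% of members, 0.518% of MGE-type, 0% of CGE-type and 0.387% of projection neuron nuclei. Meis2 was seen in 93.4% of thinned members against 9.47, 59.6 and 66.0%. A thinned member showed 3.37 of the 14 factors on average, against 1.20, 2.33 and 1.31. The share in projection neurons is no full measure of background, since nuclei with a UMI of the rule genes were left out of them.

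Genes of mature striatal signalling were mostly low. Of 22 on the list, 7 had enough UMIs for the comparison with MGE-type nuclei, and 2 of them were at least 4-fold higher in the members. Adora2a, an adenosine receptor gene and one of these, was at 34.0 CPM (36 UMIs in 27 members) against 1.69, 0 and 0.616. It entered the comparison with MGE-type nuclei through its UMIs in the members. Drd2 had 17 UMIs and Penk 15, both with none in MGE-type or CGE-type nuclei.

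Drd1, the receptor of direct-pathway neurons, was at 7.55 CPM from 8 UMIs, within its counting interval (3.26 to 14.9) of MGE-type (10.1) and CGE-type (7.57) nuclei and below projection neurons (17.1). Tac1 had 6 UMIs in 3 members. Pdyn, Gpr6, Chrm4 and Rasd2 had none in the 1059742 UMIs of the members. Against projection neurons, 5 genes were at least 4-fold higher, among them Drd2, Adora2a, Penk and Pde7b, whereas 4 genes of striatal dopamine and cyclic AMP signalling were at least 4-fold lower: Ppp1r1b (DARPP-32), Rgs9, Adcy5 and Arpp21. Arpp21 was at 111 against 650 CPM. Against CGE-type nuclei 1 of 7 signalling genes compared was at least 4-fold higher, and Adora2a was not called (log2 at least 1.64). Among striatal genes, transcription factors and a few receptors thus set the members apart from MGE-type and projection neuron nuclei. They did so less from CGE-type nuclei, where 3 of 13 factors were called. Drd1 and DARPP-32 were called higher in none of the comparisons.

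The GABAergic machinery that the rule did not use was shared with interneurons. Slc32a1, the vesicular GABA transporter, was at 146 CPM against 180 in MGE-type, 163 in CGE-type and 1.08 in projection neuron nuclei. All 8 genes of this list were at least 4-fold higher than in projection neurons, with a median log2 difference of 4.84. Dlx6os1 was among them, at 624 against 5.70 CPM. Since members were picked by GABAergic UMIs and projection neuron nuclei by having none, these counts follow in part from both choices. Only Sp8 was called apart from interneurons, at 38.7 CPM, above MGE-type (5.06) and below CGE-type nuclei (288).

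MGE interneuron genes were low in the members beside MGE-type nuclei. Against CGE-type nuclei 4 of 10 compared were at least 4-fold lower and none higher. Against projection neurons 2 of 11 were higher (Erbb4 and Cxcr4) and 2 lower (Npy and Mef2c). All 12 MGE interneuron genes with enough UMIs, of 15 listed, were at least 4-fold lower than in MGE-type nuclei, with a median log2 difference of -4.36. Maf was at 15.1 against 1512 CPM (log2 -6.63, counting interval -7.35 to -5.92), and the MGE-type nuclei of the 8 libraries ranged from 1181 to 1747. The peptide genes Sst and Npy had 4 and 6 UMIs in the members, or 3.77 and 5.66 CPM, against 534 and 516. Erbb4, the neuregulin receptor of migrating interneurons, was at 13.2 against 554, and Sox6 at 23.6 against 330. Npas1 had 0 UMIs in the members and 54 in MGE-type nuclei. Since MGE-type nuclei were picked by Lhx6 and Nxph1, which such genes accompany, these counts describe both sides of the choice.

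CGE interneuron genes were in part lower than in CGE-type nuclei. Against projection neurons 3 of 6 compared were at least 4-fold higher (Adarb2, Nr2f2 and Reln) and 1 lower (Cck). Adarb2, which was used to pick CGE-type nuclei, was at 179 CPM in the members against 1912 there and 10.1 in MGE-type nuclei. Of 9 listed genes that did not pick the CGE-type nuclei, 4 had enough UMIs, and 2 of them were at least 4-fold lower in the members. Nr2f2 (COUP-TFII) was at 29.3 against 345 in CGE-type nuclei, and Npas3 at 21.7 against 246. The other 2, Nr2f1 (log2 -1.47) and Reln (-0.72), were not called. For Reln, 42 of the 49 UMIs were in 1 member, and among members with at least 3 UMIs of Ebf1, Isl1 and Six3 it too was over 4-fold lower than in CGE-type nuclei. Htr3a had 1 UMI in the members and 11 in CGE-type nuclei, and Vip and Calb2 had none in either class. Outside the lists, Wnt5a, a secreted Wnt ligand, was at 3.77 against 159, and the channel gene Trpc4 at 10.4 against 231.

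Cortical projection neuron genes were present at low levels. Their sum over 12 genes was 1496 CPM in the members, 740 in MGE-type, 629 in CGE-type and 4235 in projection neuron nuclei. Of the 1585 UMIs, 1138 were of 1 gene, Tle4, a co-repressor also found in deep cortical layers, at 1074 CPM in the members against 695 in projection neurons and 239 in MGE-type nuclei. Of the 10 genes that were not used to pick projection neurons, 7 were at least 4-fold lower in the members, among them Tbr1 (25.5 against 199) and Slc17a7, the vesicular glutamate transporter (12.3 against 116). A Neurod2 or Neurod6 UMI was seen in 21.3% of members, 25.9% of MGE-type and 21.9% of CGE-type nuclei at full depth, and the part of free RNA in these was not tested.

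Defining genes of other regions and cells were mostly at 0. Of 10 cholinergic and pallidal genes, 8 had no UMI in any member, including Chat, Lhx8, Gbx2 and Nkx2-1, and the list summed to 4 UMIs. Of 10 hypothalamic and thalamic genes, 6 had none, including Otp, Sim1 and Six6. This list summed to 22.6 CPM, against 0 in MGE-type, 7.57 in CGE-type and 20.9 in projection neuron nuclei. Of its 24 UMIs in the members, 19 were of Tcf7l2, at 17.9 CPM against 18.8 in projection neurons. The 8 vascular genes summed to 24.5 CPM in the members against 7.23 in projection neuron, 5.06 in MGE-type and 15.1 in CGE-type nuclei, with Cldn5 and Flt1 at 0 and 11 of the 26 UMIs, of Pdgfrb, in 3 nuclei. The 8 microglial genes summed to 12.3 CPM against 15.4 in projection neuron, 6.74 in MGE-type and 7.57 in CGE-type nuclei. C1qa, Cx3cr1, Ctss, Tyrobp and Csf1r were at 0 in the members.

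Genes outside the lists set the members apart as well, named as the 10 furthest above and 5 furthest below among genes of at least 50 CPM in the higher class. The transcription factors Zfhx3, Zfhx4, Tshz2, Sox8 and Pou3f1 were among those above MGE-type nuclei, with the inhibitor Id4. Zfhx3 was at 711 CPM in the members against 13.5, 75.7 and 12.8 in MGE-type, CGE-type and projection neuron nuclei (log2 5.73 against MGE-type, counting interval 4.73 to 6.74). Id4 was at 530 against 10.1, 136 and 29.9, and Zfhx4 at 445 against 5.06, 94.7 and 86.0. Sox8 was at 151 against 1.69, 11.4 and 1.85. All of these lay above every library of the 3 classes. For Sox8 this rested on members with 6 or more UMIs of Ebf1, Isl1 and Six3, which held 141 of its UMIs (246 CPM). Members with 2 (46.5) or 3 to 5 (34.9) were near GABAergic nuclei with none (42.4).

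Cell-surface and signalling genes that were higher in the members were Cntn5, a contactin (206 against 1.69, 7.57 and 12.3), Angpt1, a secreted ligand (72.7 CPM), and Gucy1b1 and Gucy1a1, the 2 subunits of the nitric oxide receptor guanylate cyclase (101 and 291, against 3.79 and 34.1 in CGE-type nuclei). Gucy1a1 was not called against MGE-type nuclei, which were at 153. Among genes below, Nxph2, a neurexophilin, was at 0.944 against 136 in MGE-type nuclei and Dpp10, a potassium channel partner, had no UMI against 96.1. Against projection neurons, Opcml and Hivep2 were below (46.2 against 499, and 51.9 against 522), and Gipr, a hormone receptor, was at 11.3 against 138.

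**Figure D3:**
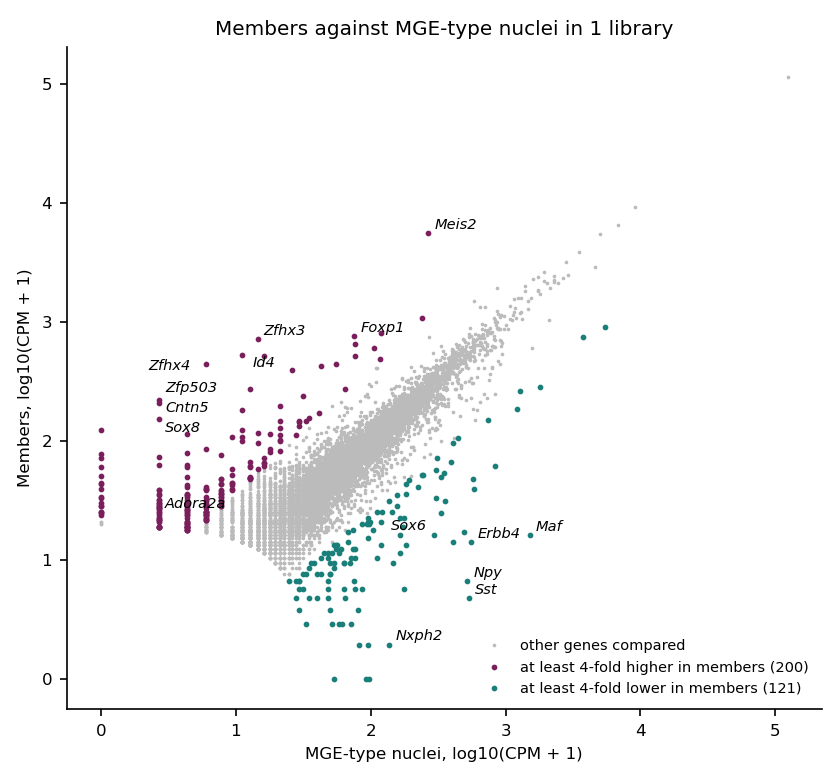
Level of each gene compared (log10 of CPM plus 1) in the members against MGE-type nuclei of wild-type saline replicate 1; coloured points are the 200 genes at least 4-fold higher and the 121 at least 4-fold lower in the members. Striatal factors such as Zfp503 and Meis2 lie above the diagonal, and Maf, Sst and Npy below it.

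The 3 comparisons use the same members, so their lists overlap in part for that reason. 28 genes were at least 4-fold higher than in all 3 classes, which is 14% of the list against MGE-type, 17.4% of that against CGE-type and 14.4% of that against projection neuron nuclei. Of these, 24 lay above every library of every class, the others being Dlk1, Kif4, Peg10 and Col4a4. Zfp503, Hes5, Slit3 and Rarb were among the 5 on the fixed lists, and Zfhx3, Id4, Zfhx4, Tshz2, Cntn5, Sox8, Gucy1b1, Angpt1, Dlk1 and Nkx2-3 were the most abundant outside them that carry a gene name.

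Axon guidance genes were mixed. Of 17 compared with MGE-type nuclei, from 22 listed, 5 were at least 4-fold higher (Dcc, Slit3, Epha4, Sema3c and Ntng1) and 3 at least 4-fold lower (Unc5c, Epha5 and Nrp2). Sema3c rested on few nuclei, with 47 of its 63 UMIs in 9 members that had Ebf1 alone, 8 of them with Neurod2 or Neurod6 UMIs. Epha4, a receptor for ephrins, was at 487 CPM against 116, 375 and 169. Epha5 was at 902 against 5460 in MGE-type and close to 2760 in both CGE-type and projection neuron nuclei. Dcc, the netrin receptor, was at 82.1 against 20.2, 3.79 and 58.5. Nrp2, a semaphorin receptor that migrating interneurons use to avoid the striatum, had 6 UMIs in the members (5.66 CPM), against 23.6, 60.6 and 21.7. MGE-type nuclei of the 8 libraries ranged from 3.4 to 23.6 for Nrp2, so that the members lay inside their spread.

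The members were next split by the factor they carried. Six3 members (138 nuclei, 341630 UMIs, Six3 without Ebf1 or Isl1) were compared with Ebf1 or Isl1 members (210 nuclei, 584589 UMIs, no Six3). Of 7223 genes, 45 (0.623%) were at least 4-fold higher in Six3 members and 91 (1.26%) at least 4-fold lower, with the whole counting interval past 4-fold for 12 and 10 of them. Median depths were close, 2268 and 2373.5 UMIs per nucleus, and the median log2 difference of all genes was -0.04.

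Of the genes known from indirect pathway neurons, Sp9 and Adora2a were at least 4-fold higher in Six3 members, and Drd2, Penk and Gpr6 had too few UMIs for the comparison. Sp9 was at 673 CPM in Six3 members and 58.2 in the others (log2 3.43, counting interval 2.91 to 3.95), with a UMI in 99 of 138 nuclei. After thinning, Sp9 was seen in 50.0% of Six3 members and 4.41% of the others. It was also seen in 41.1% of MGE-type and 26.6% of CGE-type nuclei, so it was not particular to Six3 members. Adora2a had 31 UMIs in Six3 members and 1 in the others (log2 5.63, 2.75 to 8.50). With 1 UMI in the others, Adora2a could enter the comparison only through its UMIs in Six3 members. Higher was thus the only call open to it, and the call adds nothing to these counts. Drd2 had 15 against 1 UMI (log2 4.58, 1.66 to 7.50) and Penk 13 against 1, both too few in all to enter the comparison, and 6 of the Penk UMIs were in 1 nucleus. Sp8, the paralogue of Sp9, was higher (log2 3.44), as were the striatal factor Tshz1 (48 against 6 UMIs), the progenitor factor Sox2 (943 against 103 CPM) and the guidance ligand Slit3 (57 against 3 UMIs). Sp8 (34 against 5 UMIs), Tshz1 and Slit3 entered the comparison only through Six3 members. After thinning, Sox2 was seen in 55.3% of Six3 members and 7.84% of the others, and in 31.1% of MGE-type and 43.6% of CGE-type nuclei.

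Other genes went with Ebf1 and Isl1. Cnr1, the cannabinoid receptor, had 76 UMIs in Ebf1 or Isl1 members and 3 in Six3 members (log2 -3.99). Rarb had 30 against 2 UMIs and Rxrg 28 against 3. Ikzf1 had 21 against 0, so that Six3 members were lower by at least 2.14 on the log2 scale (-2.14). Cntn5 was at 340 against 5.85 CPM, and Grin2b, a glutamate receptor subunit gene, was also called (log2 -2.06). So were the projection neuron genes Tbr1 (19 against 2 UMIs, log2 -2.58) and Slc17a6 (22 against 0, log2 -2.20 as a bound). Cnr1, Rarb, Rxrg, Ikzf1, Cntn5, Tbr1 and Slc17a6 had at most 3 UMIs in Six3 members. A higher call was thus not open to them, and the calls add nothing to these counts. Of 27 Tbr1 UMIs in all members, 15 were in 8 nuclei with both Ebf1 and Isl1, 6 of them with Neurod2 or Neurod6 UMIs. Drd1 had 5 against 2 UMIs, and Tac1 6 against 0, all 6 in members with both Ebf1 and Isl1. At this depth no difference in Drd1 was detectable.

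**Figure D4:**
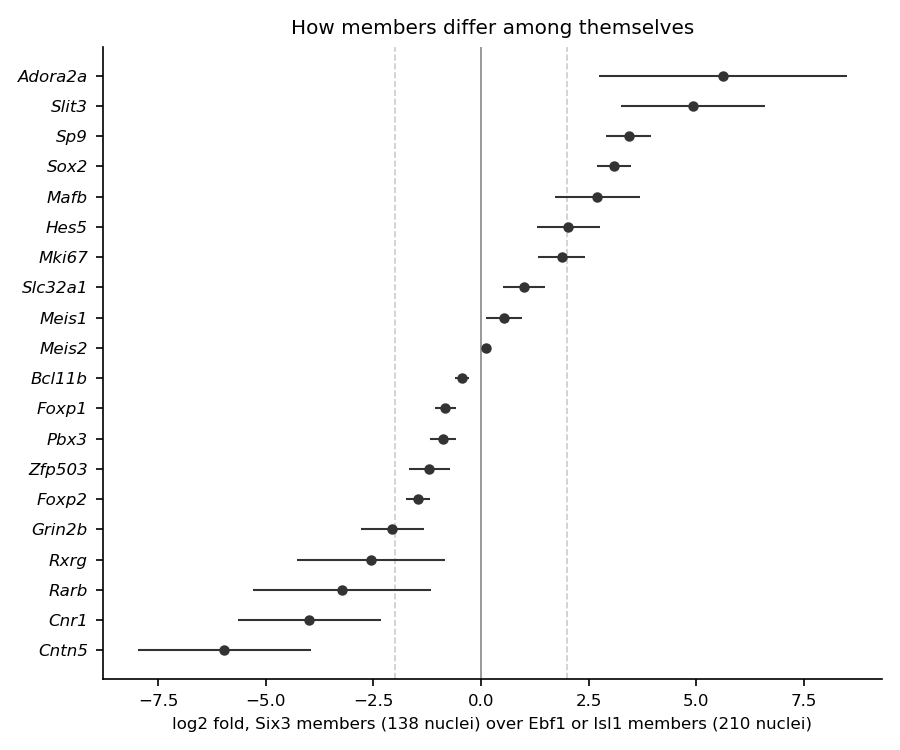
Log2 fold of Six3 members over Ebf1 or Isl1 members in wild-type saline replicate 1, as points with 95% counting intervals; dashed lines mark 4-fold. Adora2a (5.63) and Sp9 (3.43) lie to the right, Cntn5 (-5.97) and Cnr1 (-3.99) to the left, and Meis2 (0.12) near 0. Adora2a entered the comparison through its UMIs in Six3 members, and Cntn5, Cnr1, Rarb and Rxrg through theirs in Ebf1 or Isl1 members.

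Striatal factors were in part near in level in both groups and in part apart. Meis2 was at 6194 CPM in Six3 members and 5315 in the others (log2 0.12, counting interval 0.04 to 0.20) and Bcl11b at 1344 and 1704. Foxp1 (562 and 927), Foxp2 (363 and 927) and Zfp503 (129 and 275) were lower in Six3 members by less than 4-fold. For these 3 the counting interval did not include 0 (Foxp2 log2 -1.46, -1.74 to -1.18). Of 13 striatal factors compared, 2 were higher (Sp9 and Tshz1), 3 lower (Rarb, Rxrg and Ikzf1) and 8 under 4-fold. Rarb, Rxrg and Ikzf1 reached the threshold of 20 UMIs only through the Ebf1 or Isl1 members, so a higher call was not open to them. Tshz1 reached it only through the Six3 members.

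Within the Ebf1 or Isl1 members levels differed further by the pattern of the 3 factors. All 21 Ikzf1 UMIs and 187 of the 218 Cntn5 UMIs were in the 119 nuclei with both Ebf1 and Isl1. Those nuclei also held 25 of the 33 Rarb UMIs, and Foxp1 was at 1299 CPM in them, against 115 in the 54 nuclei with Isl1 alone, in which Zfp503 was at 492. The 31 nuclei with Isl1 and Six3 held Sp9 (295 CPM) and Sox2 (476) between the levels of the 2 groups. Isl1 alone thus differed from Isl1 with Ebf1 in the opposite direction for Foxp1 and Zfp503.

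The 37 nuclei with Ebf1 alone were of mixed makeup. Of 49 Reln UMIs in all members, 42 were in 1 of these nuclei. Sema3c had 47 UMIs in 9 of them, 8 of which also had Neurod2 or Neurod6 UMIs, and 7 of the 8 that had Slc17a6, a vesicular glutamate transporter, did so too. Without the nuclei that had a Neurod2 or Neurod6 UMI, Sp9 was at 723 and 69.4 CPM in Six3 and in Ebf1 or Isl1 members, Adora2a at 100.5 and 2.39, and Sema3c at 0 and 21.5.

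**Figure D5:**
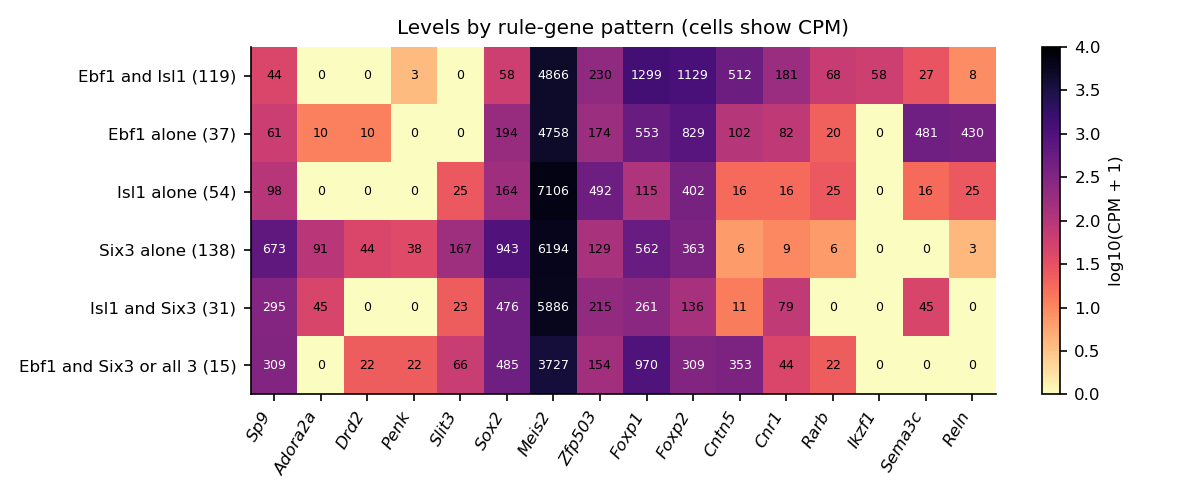
Level of genes (columns) by the combination of Ebf1, Isl1 and Six3 (rows, with the number of nuclei) in the members of wild-type saline replicate 1; each cell prints the CPM and its colour is log10 of CPM plus 1. Sp9 is at 673 in nuclei with Six3 alone and at 43.8 in those with Ebf1 and Isl1, where Foxp1 is at 1299.

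Promoters are shown for Sp9, called higher in Six3 members, for Drd2, which had too few UMIs for a call, and for Rarb and Ikzf1, called higher in Ebf1 or Isl1 members, as the 250 bases before the start site (RefSeq, GRCm38.p6), 5′ to 3′ on the strand of the gene. Capitals mark GC boxes (GGGCGG or, read on the other strand, CCGCCC), the motif of the Sp family to which Sp8 and Sp9 belong.
Sp9, chr2:73271676-73271925, plus strand: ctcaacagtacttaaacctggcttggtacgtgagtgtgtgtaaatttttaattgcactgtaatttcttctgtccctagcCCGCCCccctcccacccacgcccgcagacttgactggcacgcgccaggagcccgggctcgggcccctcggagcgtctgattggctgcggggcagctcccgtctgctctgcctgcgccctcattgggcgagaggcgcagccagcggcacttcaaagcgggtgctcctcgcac
Drd2, chr9:49340153-49340402, plus strand: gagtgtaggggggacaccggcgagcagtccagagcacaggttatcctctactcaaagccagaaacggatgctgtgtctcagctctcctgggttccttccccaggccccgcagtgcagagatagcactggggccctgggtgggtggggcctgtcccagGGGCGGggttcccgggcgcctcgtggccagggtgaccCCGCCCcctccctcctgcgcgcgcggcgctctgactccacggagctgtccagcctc
Rarb, chr14:16575477-16575726, minus strand: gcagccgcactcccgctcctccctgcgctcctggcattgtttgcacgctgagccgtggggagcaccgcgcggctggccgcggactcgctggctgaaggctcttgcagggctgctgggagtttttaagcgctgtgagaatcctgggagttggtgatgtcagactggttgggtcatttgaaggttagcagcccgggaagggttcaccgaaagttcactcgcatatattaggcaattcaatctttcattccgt
Ikzf1, chr11:11685675-11685924, plus strand: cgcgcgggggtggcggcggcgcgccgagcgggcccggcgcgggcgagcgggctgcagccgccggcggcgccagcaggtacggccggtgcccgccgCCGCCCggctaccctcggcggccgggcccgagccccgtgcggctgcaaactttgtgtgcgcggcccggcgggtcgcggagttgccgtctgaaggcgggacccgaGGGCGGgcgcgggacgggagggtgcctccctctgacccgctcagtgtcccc
Sp9 had 1 such motif, Drd2 2, Rarb 0 and Ikzf1, at the first of its 2 listed starts, 2. Of all 32536 promoters of this length, 33.0% held at least 1 on either strand, so that its presence is common. The homeobox core TAATTA (either strand, 4.84% of promoters) was in none of these 4. A match is a description of letters and says nothing of binding. Promoters of Adora2a and Penk are not shown.

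Some members carried RNA of dividing cells. Mki67 or Top2a, which mark the cell cycle, had a UMI in 75 of 394 (19%, interval 15.3 to 23.3), against 9.84% of MGE-type, 26% of CGE-type and 10.0% of projection neuron nuclei. After thinning the shares were 15.0, 1.05, 20.2 and 5.22%, which leaves the members between both interneuron classes of this library. Six3 members had such UMIs in 22.5% and Ebf1 or Isl1 members in 13.8% (18.2 and 6.86% thinned). CGE-type nuclei of this library had the highest Mki67 and Top2a of the 8 libraries (250 and 352 CPM, from lowest values of 0). Their Erbb4, Sp8 and Maf were the lowest of the 8 (307, 288 and 117 CPM). What sets these CGE-type nuclei apart was not tested. Of 10 progenitor and cell cycle genes listed, 5 were at least 4-fold higher than in MGE-type nuclei (Mki67, Top2a, Hes5, Pax6 and Slc1a3), with a median log2 difference of 2.02. Against CGE-type nuclei the median was -0.59: Hes5 alone was called higher and none lower, and the 10 genes summed to 1448 CPM in the members and 2147 in CGE-type nuclei. Pax6 was at 49.1 against 174 there.

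The 75 members with these UMIs had the Notch target Hes5 at 231 CPM against 36.1 in the other 319. Foxp1 was at 345 against 869, Zfp503 at 122 against 244 and Meis2 at 5003 against 5736. Of the rule genes, Dlx1 was at 729 against 176, Gad2 at 511 against 803 and Six3 at 659 against 672. Without dividing nuclei, the contrast between the 2 groups of members was still seen, with Sp9 at 714 and 39.3, Adora2a at 119 and 2.07 and Cnr1 at 7.68 and 138 CPM in Six3 and in Ebf1 or Isl1 members. The genes higher in Six3 members then numbered 26 in place of 45, and those lower 91 in both cases. Of the 10 genes outside the lists furthest above in Six3 members, Knl1, Cdca2, Kif23, Kif4, Diaph3 and Arhgap11a act in cell division or are known from dividing cells, and the others were Ppm1j, Esrrg, Ptprm and Zfp536.

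The 10 nuclei that met the rule in other libraries were compared with this picture one by one. Of the 7 under the label Csf1r-null saline replicate 2, 6 had Ebf1 (4 to 51 UMIs) and 1 had only Six3 (6 UMIs). Foxp1 was found in 3 of the 7 and Zfp503 in 1, with 3 UMIs, while Meis2 was found in all 7, with 1 to 19 UMIs. The other 3 with Ebf1 had 2 to 6 UMIs of Neurod2 and Neurod6, no Foxp1 and no Zfp503. The single nuclei of wild-type saline replicate 2 and wild-type MIA replicate 1 had 2 Ebf1 UMIs each with 1 GABAergic UMI and Neurod2 or Neurod6 UMIs (5 and 1). That of Csf1r-null MIA replicate 2 had 21 Ebf1 and 2 Isl1 UMIs. None of the 10 had a UMI of the 8 vascular genes.

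Adding those 7 nuclei (11308 UMIs) gave 2 libraries and so allowed a test. It was an edgeR quasi-likelihood fit with the library as a block, 1 residual degree of freedom among libraries and Benjamini-Hochberg adjustment over all genes tested. Against MGE-type nuclei 60 genes were higher in the members and 112 lower at 0.05 of 6761 tested (0.887 and 1.66%), and 152 of these 172 were among the 321 genes described above. DESeq2 on the same libraries called 35, and edgeR without the block 224. Zfp503 was higher in the members (log2 7.05, edgeR adjusted p = 1.5e-09), as were Foxp1 (3.4, adjusted p = 4.47e-06) and Meis2 (4.01, adjusted p = 2.29e-06), and Maf was lower (-6.69, adjusted p = 2.36e-11). Bcl11b was not called (1.14, edgeR adjusted p = 0.747). To these values the second library added 3 Zfp503 UMIs, all in 1 nucleus, and Foxp1 UMIs in 3 of its 7 members. Against CGE-type nuclei 14 were higher and 21 lower of 3722 (0.376 and 0.564%), and against projection neurons 276 and 302 of 11608 (2.38 and 2.6%). The 2 libraries carry very unequal weight. With 1 residual degree of freedom, the p-values rest mostly on dispersion shared over all genes and hardly on the spread between the libraries. They give no replicate support for the identity of the members. The overlap with the 321 genes uses the same 394 members and is no separate check.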

How the data were processed

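The authors deposited UMI counts per gene and barcode for 8 libraries of sorted nuclei (10x Genomics 3′ v3.1 kit), made with Cell Ranger against mm10 and not normalized. The file headers name a different Cell Ranger version for each replicate number, and the submitters' processing notes name 3.1.0. Replicate 1 files list 6794880 barcodes each and 31053 genes, replicate 2 files called barcodes and 32285 genes. The 30406 genes shared by Ensembl identifier were used. Sorted microglia, the other 18 of 26 libraries, were not used here.

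Members and gene lists were chosen with earlier results of these data known. UMIs were summed per class within wild-type saline replicate 1 and divided by the sum (CPM, scaled to 1000000). The planned edgeR test over libraries with at least 10 nuclei of each class could not be made, since 1 library qualified. Log2 folds with TMM scaling (edgeR 4.0.16, R 4.3.3) and counting intervals at 95% were given instead, with no p-value, and a fold of 4 was called over genes with at least 20 UMIs. Rule genes were left out. Genes outside the lists were named by size of fold (10 higher, 5 lower, at least 50 CPM in the higher class, without Gm-numbered, Rik or dotted names). Alternatives were other scalings (DESeq2 1.42.0 size factors, library size), no filter, stricter gates, doublet removal (Scrublet in scanpy 1.11.5), thinning to 1000 UMIs, and edgeR or DESeq2 fits in 2 libraries with at least 5 members. Leaving out nuclei with Neurod2 or Neurod6, or with Mki67 or Top2a, and a fold of 2 were added after seeing the data. Nuclei libraries held 9897721 to 17605575 UMIs. The fold and test code was tested on simulated data. Python 3.11.15, numpy 2.4.6, scipy 1.17.1 and pandas 2.3.3 were used. RefSeq promoters of GRCm38.p6 gave the sequences. Some genes on the lists are not reported here by name.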

Additional observations from a re-analysis of the deposited data

Results flagged for a closer look

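Of 11 measures compared over the 8 libraries, 9 had wild-type saline replicate 1 so far above the other 7 that Dixon's 95% criterion for 8 values was passed. Of the 9, all but the share of CGE-type nuclei and Zfp503 are the members or genes of their rule, which was known to pick this library, and CGE-type nuclei also need a GABAergic UMI. They are given as description. Chance passes about 1 in 20 groups of independent values, which these are not, since they share genes and nuclei. The share of members was 8.40% there, that of nuclei with at least 2 GABAergic UMIs 24.9%, that of CGE-type nuclei 2.05%, and that of Neurod2 or Neurod6 nuclei with a UMI of Ebf1, Isl1 or Six3 4.62%. Over all nuclei Ebf1 was at 708 CPM, Isl1 at 71.3, Six3 at 70.9, Zfp503 at 26.4 and Gad2 at 168. The share of MGE-type nuclei and Lhx6, the MGE interneuron factor, did not pass (Lhx6 36.6 CPM against 16.2 to 31.3).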

How the results depend on the processing

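The counts of genes at least 4-fold apart were 321, 202 and 544 for the members against MGE-type, CGE-type and projection neuron nuclei, and 136 for Six3 against Ebf1 or Isl1 members. They stayed within 1.5 times under other scalings, doublet removal, stricter gates (not applied to the last) and without Neurod2 or Neurod6 nuclei or dividing nuclei. The genes changed more than the counts: 228, 109, 434 and 83 of the genes were shared without Neurod2 or Neurod6 nuclei, 226, 118, 411 and 85 without dividing nuclei, and 265, 146, 476 and 110 with doublets removed. Without a filter beyond 1 UMI they were 695, 453, 1105 and 552, and the balance of higher to lower turned, from 200 and 121 to 343 and 352, from 161 and 41 to 214 and 239, from 195 and 349 to 756 and 349, and from 45 and 91 to 295 and 257. In that setting the calls on genes of few UMIs depend on the unequal class totals and on the 3 UMIs set for a class at 0. The turn is thus no result about the members. With a fold of 2 the counts were 1115, 1092, 1829 and 694. The share of members in wild-type saline replicate 1 was 8.40%, 4.46% after thinning and 6.78% with at least 3 UMIs. Without Neurod2 or Neurod6 nuclei, Slc17a6 went from above to below CGE-type nuclei (log2 -0.24). Of the other values of single genes, 200 moved beyond their counting error under these settings and 2734 did not. Leaving out any of the other 7 libraries changes no count, since the members described are in 1 library, and without that library no value can be had.

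In the 2-library fits (edgeR or DESeq2, at least 5 nuclei of each class, adjusted p under 0.05), the replicate block pairs both classes of a library. With the block edgeR called 172 genes against MGE-type, 35 against CGE-type and 578 against projection neuron nuclei, of which 152, 32 and 303 were also at least 4-fold apart in 1 library. Without the block it called 224, 21 and 937. DESeq2 with the block called 35, 1 and 130, and edgeR with the block and no filter 141, 23 and 859. The cause of these differences was not tested. Six3 against Ebf1 or Isl1 members could not be fitted, since the second library held 1 Six3 member. Depth limits the genes of low level: Drd2, Penk, Tac1 and Drd1 rest on 17 or fewer UMIs in all members.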

Other observations

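Of 12 neuronal maturation genes listed and compared, none was at least 4-fold apart from MGE-type or CGE-type nuclei and 1 from projection neurons, Nrxn3, at 1046 CPM in the members, 2096 in MGE-type, 2332 in CGE-type and 4.77 in projection neuron nuclei. Stmn2, a growth cone gene, was at 1217 against 1158, 1488 and 1274. The young-neuron gene Dcx was at 536 against 934, 912 and 545. Smaller differences were present as well: Syt1, a synaptic vesicle gene, was at 230 against 554 in MGE-type nuclei (log2 -1.26, counting interval -1.50 to -1.02), and Rbfox3, a gene of mature neurons, at 26.4 against 70.8 (-1.41, -2.10 to -0.72), both below all 8 libraries of MGE-type nuclei.

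Of the 12 GABA receptor subunit genes, 5 had enough UMIs for the comparison with MGE-type nuclei, and Gabrg3 was lower in the members (6.61 against 42.1 CPM). Gabra2 was lower than in CGE-type nuclei of the same library (21.7 against 140), but inside their range of 0 to 449 over the 8 libraries.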
